A study of Anthurium andraeanum with 18 samples.

Results

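The leaf transcriptomes of 2 Anthurium andraeanum cultivars, Fantasy Love and Oregon, were compared in plants that had stayed at 25 °C and had not met cold. The libraries were chosen by their labels alone: 3 of Fantasy Love and 3 of Oregon carry the 25 °C control label, which makes 6 of the 18 libraries of the series. Both groups were leaves of plants in full flower, kept in growth chambers with equal day and night lengths. Their labels differ in the cultivar and in the time that the titles name. The other 12 libraries came from the same cultivars at 6 °C and 4 °C, with 3 for each cultivar at each temperature, and serve here to show whether a cultivar difference was also present in the cold. The labels call the libraries biological replicates without tying them to plants, so the p-values measure the spread between these libraries. The time of day of sampling is not given, and the labels differ on how long the controls had been in the chambers. The titles name 3 days for the 3 Oregon libraries and control for the 3 Fantasy Love libraries, while a time label gives 0 days for all 6. Any difference in chamber time would coincide with the cultivar and cannot be told apart from it. Each cultivar is a single variety, so a difference between them belongs to this pair and to no wider class of cultivars.

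Anthurium is an aroid grown for its coloured spathe and glossy leaves, and comes from warm, humid forest. A leaf at a permissive temperature normally spends much of its messenger RNA on photosynthesis. Heat shock proteins are chaperones that bind or refold damaged proteins; heat stress transcription factors switch their genes on after heat and also after other stresses, and many small heat shock protein genes are nearly silent in unstressed leaves. The genes here are transcript groups of a transcriptome assembled without a genome, so a name is that of the most similar known protein, 1 plant gene may be split over several groups, and a cultivar's own allele of a gene may stand as a group of its own. Levels are CPM, read counts scaled to a common library size with the trimmed mean of M values, and they compare libraries, not genes. All folds are Fantasy Love over Oregon on the log2 scale with their standard errors (SE), from edgeR's quasi-likelihood test with Benjamini-Hochberg adjustment over every group tested. A group is called higher or lower in Fantasy Love where its adjusted p is under 0.05 and its log2 fold is at least 1 in size. These are bulk leaves, in which fewer cells of a type and less RNA per cell cannot be told apart.

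The 6 libraries held between 17121829 and 21578060 counts. Correlations of log2 CPM ran from 0.967 to 0.971 within Oregon, from 0.956 to 0.965 within Fantasy Love and from 0.878 to 0.895 between the cultivars. Fantasy Love was the less uniform cultivar: among groups with at least 10 CPM, 267 of 13698 differed more than 4-fold between its libraries, and 149 of these were highest in replicate 3 and 146 lowest in replicate 1. In Oregon 57 of 13617 did so. Of 51670 groups tested, 4314 were called higher in Fantasy Love (8.35%) and 3641 lower (7.05%), which is 15.4% in all, and the median log2 fold was 0. The libraries of the 2 cultivars did not overlap for 7788 of the 7955 called groups, which is 97.9% of them against 42.1% of all tested groups. Markers of guard cells, of xylem and of root gave no call, with 15, 21 and 1 groups tested. With 1 library left out, 1 guard cell group was higher without Fantasy Love replicate 1 and 1 xylem group lower without Fantasy Love replicate 2. Markers of phloem gave 1 in each direction of 17 (0 higher without Oregon replicate 1 or 3 and 2 higher without Fantasy Love replicate 2). Markers of epidermis gave 4 higher and 5 lower of 38 (2 higher without any 1 library but Fantasy Love replicate 1, and 3 lower without Oregon replicate 3 or Fantasy Love replicate 2).

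**Figure D1:**
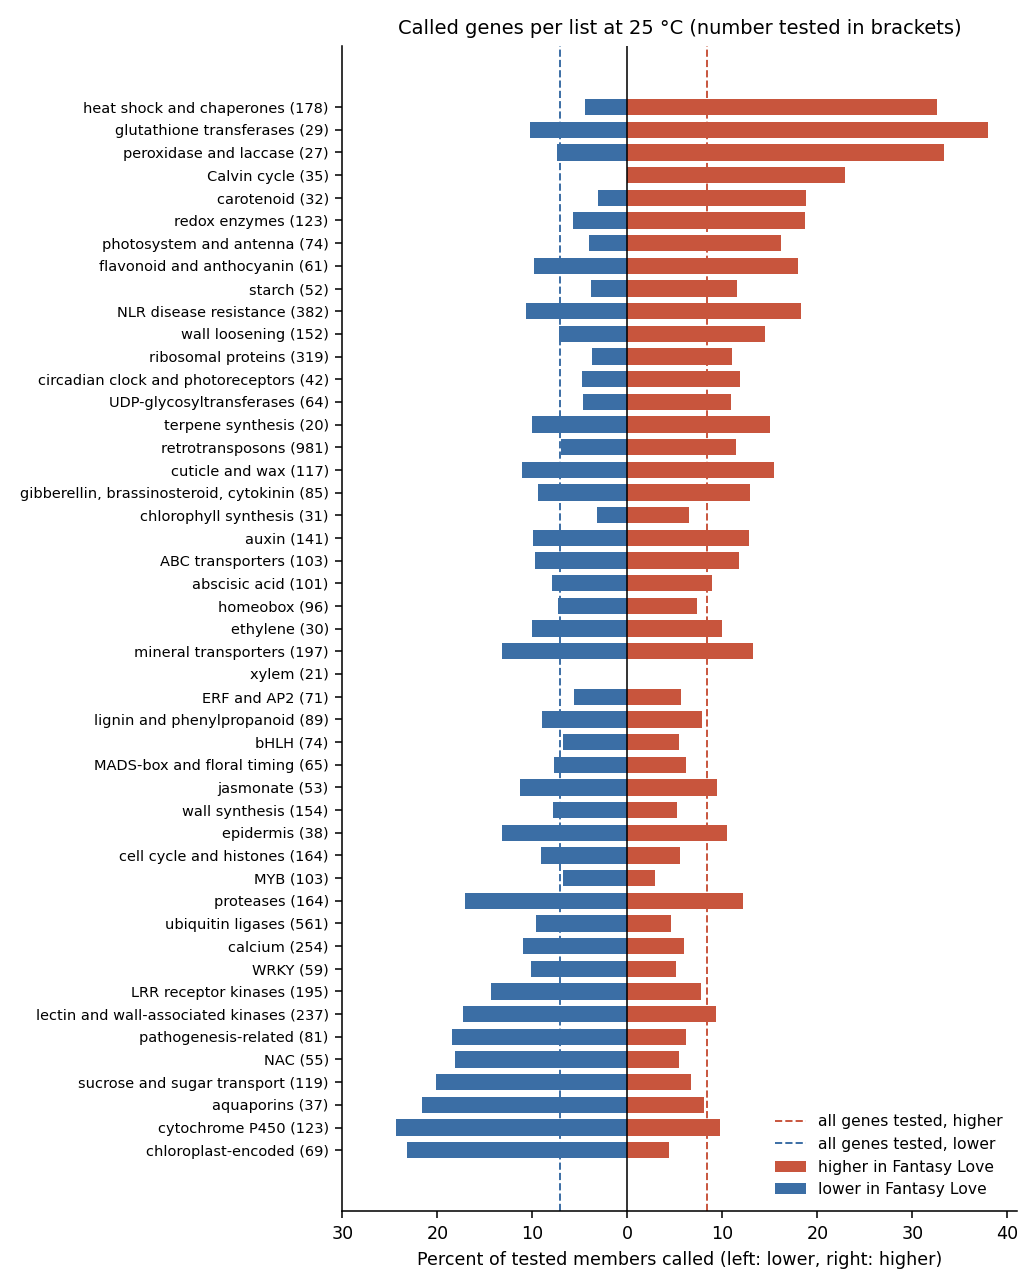
Percent of the tested groups of each gene list that were called higher (right) or lower (left) in Fantasy Love leaves at 25 °C, for lists with at least 20 tested groups; dashed lines mark the percentages over all tested groups, 8.35 and 7.05. Heat shock proteins and chaperones reached 32.6% higher, and cytochromes P450 reached 24.4% lower.

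Heat shock genes were higher in Fantasy Love although its plants had stayed at 25 °C. Of 178 tested groups named as heat shock proteins, chaperones or heat stress factors, 58 were called higher (32.6%) and 8 lower (4.49%), with a median log2 fold of 0.52. Small heat shock proteins, which hold unfolding proteins in a refoldable state, made up 23 of the 58. Of 34 tested, a list made after values were seen, 23 were called higher (67.6%) and 1 lower (2.94%), with a median of 4.16. Their summed level was 706.7 to 835.7 CPM in the Oregon libraries and 2477 to 12410 CPM in the Fantasy Love libraries. As a share of all counts they made up 0.069%, 0.0667% and 0.0609% in Oregon replicates 1 to 3 and 0.317%, 0.211% and 1.05% in Fantasy Love replicates 1 to 3. All Fantasy Love libraries stood above all Oregon libraries, and replicate 3 stood far above the other 2. An exact two-sided permutation test of this share gave p = 0.1, the smallest value that 3 against 3 can give. Without Fantasy Love replicate 3 the calls were 45 of the heat shock list and 19 of the small heat shock proteins.

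A class II small heat shock protein (DN41420_c0_g1) measured 8.14, 10.8 and 4.63 CPM in the Oregon libraries and 775, 598 and 3945 CPM in the Fantasy Love libraries. The lowest Fantasy Love library lay far above the highest Oregon library, and the log2 fold was 7.82 ± 0.68 (SE, n = 3 a side; edgeR adjusted p = 4.64e-07). The mitochondrial-type small heat shock protein HSP23.6 (DN46798_c1_g4) stood at 12.2, 9.49 and 5.70 CPM in Oregon and at 289, 160 and 604 CPM in Fantasy Love, a log2 fold of 5.26 ± 0.54 (adjusted p = 2.74e-06). Another group with the same name (DN46798_c1_g3) went the other way, with 14.2 to 17.1 CPM in Oregon and 1.36 to 3.83 CPM in Fantasy Love and a log2 fold of -2.72 ± 0.53 (adjusted p = 0.00151). Reads of such near-identical groups may be split by the counting or by the cultivars' alleles, so single small heat shock protein groups are less certain than their sum. HSP18.2 (DN47793_c0_g1), a cytosolic class I member, rose from 6.17 to 11.6 CPM in Oregon to 299 to 1326 CPM in Fantasy Love, and the chloroplast member HSP26.7 (DN46690_c0_g2) from 31.4 to 42.5 CPM to 163 to 2112 CPM. In each of these members Fantasy Love replicate 3 was the highest library. HSP18.2, HSP26.7 and the first HSP23.6 group were picked after their values were seen.

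The larger chaperones followed with smaller differences. Their lists of HSP90, HSP70, ClpB and DnaJ groups were also made after values were seen. HSP90 proteins, which help signalling proteins to fold, had 8 of 20 groups higher and 0 lower (median 0.50; 5 higher without Fantasy Love replicate 3), and HSP70 proteins had 8 of 31 higher and 1 lower (median 0.83; 0 lower without Oregon replicate 1 or 2 or Fantasy Love replicate 2). HSP83A (DN54006_c1_g1), a cytosolic HSP90, measured 62.0, 61.0 and 53.5 CPM in Oregon and 1009, 378 and 1050 CPM in Fantasy Love, a log2 fold of 3.79 ± 0.55 (adjusted p = 0.000109). Here replicate 2 was the lowest Fantasy Love library and still lay above every Oregon library. CLPB1 (DN56273_c1_g1), the disaggregase that pulls aggregated proteins apart, stood at 104, 93.9 and 104 CPM in Oregon and 663, 251 and 922 CPM in Fantasy Love, a log2 fold of 2.60 ± 0.40 (adjusted p = 0.000165), and 4 of 6 ClpB groups were called higher. A heat shock 70 cognate protein (DN55937_c2_g3) had a log2 fold of 2.0 ± 0.35 (adjusted p = 0.000632). Chaperones of the chloroplast and other organelles took part: the plastid HSP90-5 (DN53960_c2_g2) had a log2 fold of 1.4 ± 0.18, and RBCX2 (DN42224_c1_g1), which assists the assembly of Rubisco, went from 39.99 to 60.5 CPM in Oregon to 144 to 184 CPM in Fantasy Love. DnaJ proteins, the partners of HSP70, were mixed, with 10 of 60 higher and 6 lower, the higher count being 6 without Oregon replicate 1 or Fantasy Love replicate 1. The most abundant of them, ANJ1 (DN49416_c1_g2), was lower in Fantasy Love, with 2086 to 2593 CPM in Oregon against 755 to 1096 CPM.

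Among heat stress transcription factors, a list made after values were seen, 4 of 25 groups were called higher and 3 lower. HSFA2B (DN35567_c1_g1), of the A2 type that sustains heat shock gene expression, measured 0.354, 0.544 and 1.01 CPM in the Oregon libraries and 136, 159 and 428 CPM in the Fantasy Love libraries. All Oregon libraries were near silent and all Fantasy Love libraries were not, and the log2 fold was 8.55 ± 1.01 (adjusted p = 1.26e-05). HSFB2C (DN39711_c0_g4), of the B class that can repress heat shock genes, stood at 4.46 to 6.65 CPM in Oregon and at 131, 16.9 and 69.95 CPM in Fantasy Love (log2 fold 3.62 ± 0.60). A neighbouring group of the same name (DN39711_c0_g5) was lower, at -1.75 ± 0.35. HSFA1 (DN51163_c0_g2), of the type that starts the response and picked after its values were seen, was also lower, with 21.7 to 26.7 CPM in Oregon and 10.0 to 12.2 CPM in Fantasy Love.

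**Figure D2:**
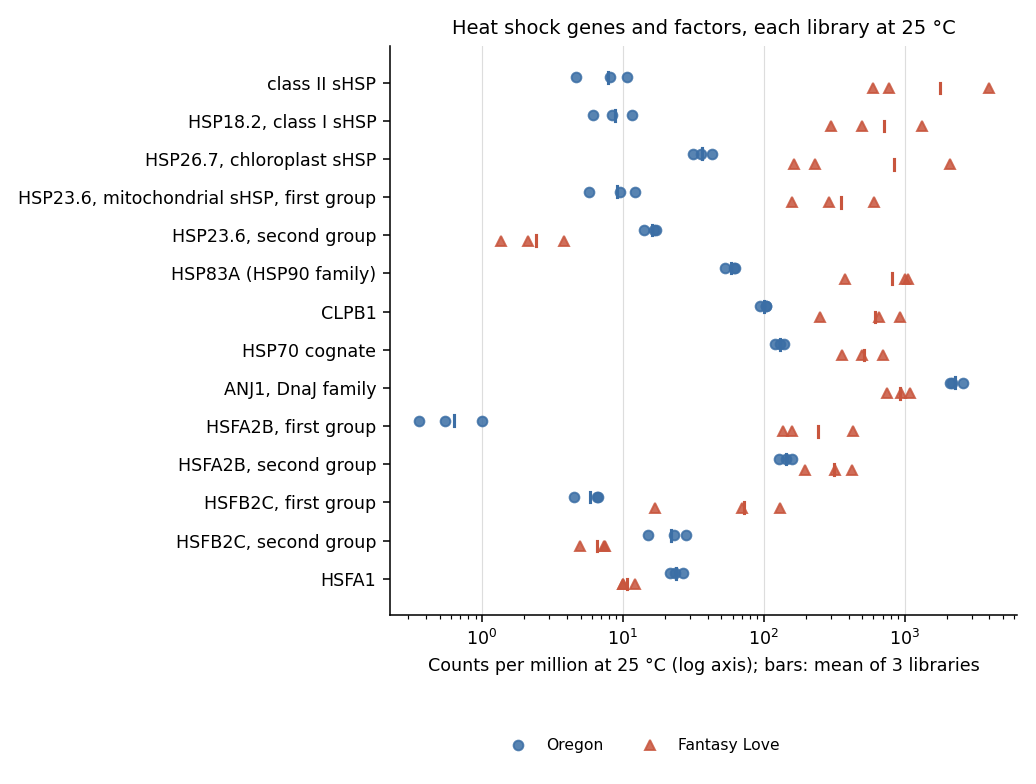
Level (CPM after scaling, logarithmic axis) of 14 heat shock genes in each 25 °C library; points are libraries of Oregon and of Fantasy Love, and bars are the means of 3. HSFA2B lies near 1 CPM or below in all Oregon libraries and at 136 CPM or more in all Fantasy Love libraries, while ANJ1 lies lower in Fantasy Love.

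In the cold most of the heat shock groups were no longer called higher in Fantasy Love. The 6 °C and 4 °C comparisons take their means from other libraries, but their tests share the spread estimated over all 18 libraries with the 25 °C test. The change of a difference between temperatures uses the 25 °C libraries again and so shares them with the calls. Of the 58 heat shock groups higher at 25 °C, 7 were also called higher at 6 °C (12.1%) and 15 were called lower (25.9%); at 4 °C the counts were 8 and 9. Over all 4314 groups called higher at 25 °C, 1834 were called higher at 6 °C (42.5%) and 165 lower (3.82%), and 1468 (34.0%) and 209 (4.84%) at 4 °C. The change toward Oregon was itself past the threshold for 48 of the 58 at 6 °C (82.8%) and 40 at 4 °C (69.0%), against 22.6% and 28.2% of all groups higher at 25 °C. Over all tested groups, 12.1% were called higher in Fantasy Love and 11.3% lower at 6 °C (23.4% in all), and 8.95% and 10.2% at 4 °C (19.2% in all). The change of the difference was called for 9.04% of them from 25 to 6 °C, 5.06% toward Fantasy Love and 3.97% toward Oregon, and for 8.89% from 25 to 4 °C, 3.86% and 5.04%. The class II protein DN41420_c0_g1 shows the pattern: its mean in Oregon was 7.84 ± 3.08 CPM (SD, n = 3) at 25 °C, 720 ± 256 CPM at 6 °C and 878 ± 110 CPM at 4 °C, and in Fantasy Love 1773 ± 1883, 667 ± 214 and 659 ± 35.3 CPM. In the cold the means of the cultivars lay near each other, and the cultivar fold was -0.11 at 6 °C (adjusted p = 0.898) and -0.41 at 4 °C (adjusted p = 0.6). HSP83A was lower in Fantasy Love in the cold, with folds of -1.48 at 6 °C (adjusted p = 0.0363) and -1.78 at 4 °C (adjusted p = 0.0175). Its Oregon mean was 722 ± 225 and 959 ± 417 CPM there, against 58.8 ± 4.66 CPM at 25 °C. HSFA2B was still higher in Fantasy Love at 6 °C, by 4.21 (adjusted p = 0.00141), and lower at 4 °C, at -3.48 (adjusted p = 0.00843). Another class II group (DN41420_c0_g3), picked after its values were seen, differed at every temperature, with folds of 8.80, 9.33 and 7.81 at 25, 6 and 4 °C.

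**Figure D3:**
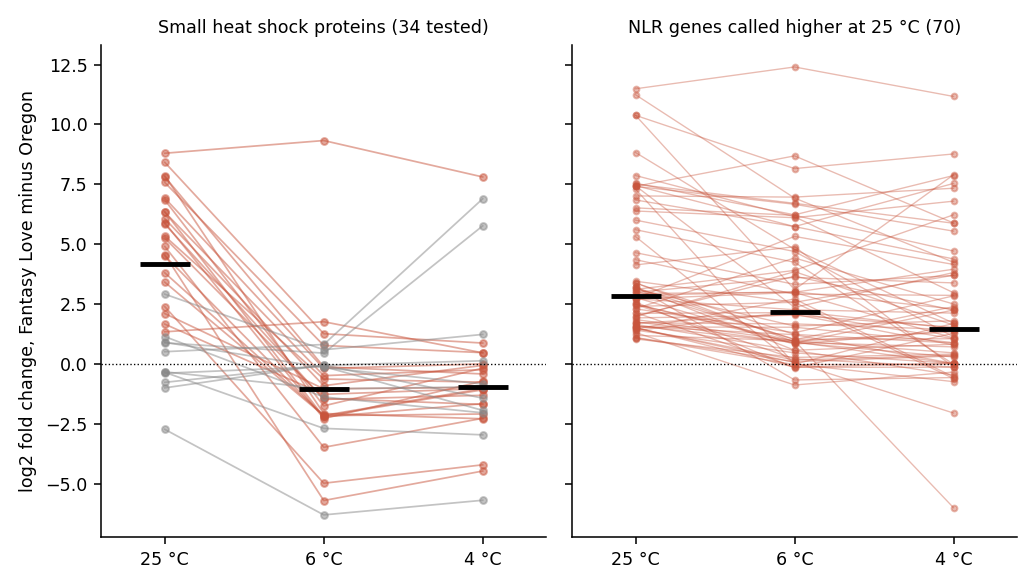
Log2 fold of Fantasy Love over Oregon at 25, 6 and 4 °C for the 34 tested small heat shock protein groups (left; red where called higher at 25 °C, grey otherwise) and for the 70 NLR groups called higher at 25 °C (right); lines join a group and black bars are medians. The medians of the 34 small heat shock groups go from 4.16 to -1.03 and -0.96, and those of the 70 NLR groups from 2.83 to 2.18 and 1.46; the 25 °C points of the groups called higher there were chosen for being high.

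Photosynthesis genes differed in a few nuclear members rather than as a whole. Of 74 tested photosystem and electron transport groups, 12 were called higher in Fantasy Love (16.2%) and 3 lower (4.05%), with a median of 0.33. PSBS (DN34330_c2_g1), the photosystem II subunit that sets heat dissipation of excess light, measured 1489, 1938 and 1471 CPM in Oregon and 7600, 7263 and 7979 CPM in Fantasy Love. The cultivars were far apart and each was uniform, and the log2 fold was 2.22 ± 0.23 (adjusted p = 2.68e-06). LHCA5 (DN47208_c0_g2), a minor antenna protein of photosystem I, had a log2 fold of 1.6 ± 0.19. The most abundant antenna group (DN35270_c0_g1, a chlorophyll a-b binding protein of LHCII) had 9403 to 13440 CPM in Oregon and 6742 to 8703 CPM in Fantasy Love and was not called (log2 fold -0.54 ± 0.55, adjusted p = 0.553). All light-harvesting groups together took 5.09% to 6.48% of the counts in Oregon and 5.06% to 6.05% in Fantasy Love, which overlap (exact two-sided permutation p = 0.9).

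In the Calvin cycle, which fixes carbon dioxide, 8 of 35 groups were called higher (22.9%) and 0 lower, with a median of 0.58. Their summed level was 32630 to 36890 CPM in Oregon and 64300 to 66800 CPM in Fantasy Love. Rubisco activase (RCA, DN56471_c1_g2), which clears inhibitors from Rubisco, measured 9091, 8696 and 8400 CPM in Oregon and 18290, 18040 and 21100 CPM in Fantasy Love, a log2 fold of 1.13 ± 0.23 (adjusted p = 0.00215). The plastid fructose-bisphosphate aldolase ALDP (DN53300_c0_g1) had a log2 fold of 1.18 ± 0.22 (adjusted p = 0.000892), and a phosphoglycerate kinase (DN55393_c0_g2) went from 128 to 170 CPM in Oregon to 614 to 810 CPM in Fantasy Love, a log2 fold of 2.31 ± 0.20 (adjusted p = 3.95e-07). The most abundant small subunit of Rubisco (RBCS, DN57201_c1_g3) stood at 10760 to 12560 CPM and 18770 to 19110 CPM. The cultivars did not overlap, but the log2 fold of 0.70 ± 0.33 was not called (adjusted p = 0.154). Its test shares the spread of all 18 libraries, and at 6 °C the Fantasy Love mean was 6756 ± 3628 CPM (SD, n = 3). Beside the cycle, a carbonic anhydrase (DN46946_c0_g1) and a glutamine synthetase (DN53614_c1_g2), which assimilates ammonium, were higher by 1.45 ± 0.25 and 1.30 ± 0.22. Of the 8 Calvin cycle groups, 3 were called higher at 6 °C, 0 at 4 °C and 1 lower at 4 °C, where RCA had a fold of -1.08.

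Among 69 groups named for genes of the chloroplast's own DNA, 16 were called lower (23.2%) and 3 higher (4.35%), with a median of -0.68. They made up 0.109%, 0.157% and 0.108% of the counts in Oregon and 0.0858%, 0.103% and 0.0762% in Fantasy Love (exact two-sided permutation p = 0.1). The lower calls fell to 5 without Oregon replicate 2, and to 7 without Fantasy Love replicate 1 or 3. The higher calls fell to 1 without Fantasy Love replicate 1 or 3 and to 0 without any 1 of the other libraries. rpl20 (DN45939_c1_g3), a plastid ribosomal protein, was lower by a log2 fold of -1.39 ± 0.26 (adjusted p = 0.000887). The psbA group with the most counts (DN43689_c2_g3), which encodes the photosystem II core protein D1, had 172 to 439 CPM in Oregon and 102 to 179 CPM in Fantasy Love and was not called (adjusted p = 0.112). Chloroplast transcripts mostly lack the poly(A) tail. Ribosomal RNA-like groups took 0.129%, 0.406% and 0.263% of the counts in Oregon replicates 1 to 3 and 0.115%, 0.206% and 0.102% in Fantasy Love replicates 1 to 3. Replicate 2 of each cultivar was highest in both shares, while Oregon replicates 1 and 3 were alike in the chloroplast share alone. How the 2 shares relate, and their part in the result, was not tested.

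Of 31 chlorophyll groups, 2 were higher (6.45%) and 1 lower (3.23%), both shares below those of all tested groups (8.35% and 7.05%). The lower one is an abundant enzyme. PORA (DN53509_c0_g2), which reduces protochlorophyllide in the light, measured 1608, 1152 and 1001 CPM in Oregon and 342, 307 and 288 CPM in Fantasy Love, a log2 fold of -2.01 ± 0.36 (adjusted p = 0.000749). GLUTRBP (DN52318_c0_g1), which binds the first committed enzyme of the pathway, was higher by 1.13 ± 0.17, and the most abundant chlorophyll group, CHLH (DN49634_c0_g1) of magnesium chelatase, was not called (log2 fold 0.49, adjusted p = 0.444). Carotenoid genes had 6 of 32 higher (18.8%) and 1 lower (3.12%; 0 groups without Oregon replicate 1 or any 1 Fantasy Love library), with a median of 0.33, and the higher count was 6 whichever of the 6 libraries was left out. LUT5 (DN48033_c2_g2), a carotene hydroxylase of the lutein branch, stood at 84.0, 106 and 80.1 CPM in Oregon and 400, 408 and 524 CPM in Fantasy Love, a log2 fold of 2.30 ± 0.32 (adjusted p = 7.62e-05). Both phytoene synthase groups called, the entry step of the pathway, were higher, PSY (DN40766_c1_g1) by 1.61 ± 0.21 and PSY1 (DN56548_c1_g1) by 1.31 ± 0.24. Of the 6, 1 was called higher at 6 °C and 0 at 4 °C.

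Flavonoid genes, which make anthocyanins and related pigments, had 11 of 61 groups higher (18%) and 6 lower (9.84%), with a median of 0.12, and a summed level of 1822 to 3085 CPM in Oregon and 4052 to 6806 CPM in Fantasy Love. Chalcone synthase CHS1 (DN57370_c2_g1), the entry enzyme, measured 148, 282 and 798 CPM in Oregon and 1380, 2808 and 1339 CPM in Fantasy Love. Each cultivar spread over a wide range without overlap with the other, and the log2 fold was 2.17 ± 0.55 (adjusted p = 0.00968; 0.0525 and 0.0528 without Oregon replicate 2 and Fantasy Love replicate 2). Later steps were also higher: chalcone isomerase (CHI, DN45273_c0_g1) by 2.72 ± 0.64, a flavonoid 3'-hydroxylase (DN47644_c0_g1) by 1.84 ± 0.30, dihydroflavonol reductase (DFR, DN43996_c0_g2) by 2.48 ± 0.60 and anthocyanidin synthase (ANS, DN34470_c2_g1) by 1.80 ± 0.49. Anthocyanidin reductase (ANR, DN32682_c0_g3), which leads to proanthocyanidins, had 89.9, 164 and 346 CPM in Oregon and 642, 825 and 364 CPM in Fantasy Love, a log2 fold of 1.61 ± 0.52 near the threshold (adjusted p = 0.0371). The further higher groups were another flavonoid hydroxylase CYP75B2 (DN42875_c0_g3), a C-glucosyltransferase CGT (DN47162_c0_g7), a malonyltransferase (DN49445_c0_g2), a flavonoid glucosyltransferase (DN51436_c0_g1) and the C1-type regulator DN43444_c0_g3. The lower groups were another C1-type regulator (DN50545_c1_g2), both ANL2 homeobox groups called (DN56621_c1_g5, DN53740_c0_g7), CYP75B1 (DN48977_c0_g3), a further glucosyltransferase (DN45887_c0_g5) and GT5 (DN42861_c1_g3), an anthocyanidin glucosyltransferase with a log2 fold of -3.07 ± 1.04 (adjusted p = 0.0487). The count higher was 6 without Oregon replicate 1 or 2 or Fantasy Love replicate 2 and 13 without Oregon replicate 3, and the count lower was 1 to 4 with any library left out. CGT, GT5 and the lower glucosyltransferase DN45887_c0_g5 lost their calls without any 1 of the 6 libraries. The lower C1-type group lost its call without any 1 library but Fantasy Love replicate 1, and the ANL2 group DN53740_c0_g7 likewise. ANR and CYP75B2 lost theirs without replicate 1 or 2 of either cultivar, ANS without Oregon replicate 1 or 2 or Fantasy Love replicate 2, the higher C1-type group without Oregon replicate 1 or 3 or Fantasy Love replicate 3, and the lower CYP75B1 group without replicate 1 of either cultivar. CHI, DFR, the 3'-hydroxylase DN47644_c0_g1, the malonyltransferase, the higher glucosyltransferase DN51436_c0_g1 and the ANL2 group DN56621_c1_g5 were called whichever library was left out.

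Redox enzymes differed by class. Of 123 groups in all, 23 were called higher in Fantasy Love (18.7%) and 7 lower (5.69%; 4 without Oregon replicate 1 or 3 or Fantasy Love replicate 2 or 3). Their summed levels overlapped, at 15300 to 16420 CPM in Oregon and 15920 to 16520 CPM in Fantasy Love. Of 30 ascorbate cycle and superoxide dismutase groups among them, a list made after values were seen, 12 were called higher (40%) and 0 lower, with a median of 0.86, and the count was 12 whichever library was left out. Their summed level was 1518 to 1731 CPM in Oregon and 3658 to 3894 CPM in Fantasy Love. APX1 (DN56298_c0_g1), an ascorbate peroxidase that removes hydrogen peroxide, measured 270, 373 and 359 CPM in Oregon and 1579, 1441 and 1476 CPM in Fantasy Love. The cultivars did not overlap and the log2 fold was 2.17 ± 0.19 (adjusted p = 4.64e-07). SODCP (DN56861_c0_g1), the chloroplast copper/zinc superoxide dismutase, had a log2 fold of 1.77 ± 0.19 (adjusted p = 5.54e-06) and was also higher in the cold, by 1.71 at 6 °C and 1.26 at 4 °C, whereas APX1 was not (folds of -0.51 and -0.33). Catalase CAT1 (DN55233_c0_g1) stood at 937 to 1004 CPM in Oregon and 2014 to 2125 CPM in Fantasy Love, a log2 fold of 1.10 ± 0.26 (adjusted p = 0.00657). The most abundant redox group, catalase CAT3 (DN47565_c0_g2), lay on the other side without overlap, at 6113, 5253 and 5720 CPM in Oregon and 1807, 2728 and 1826 CPM in Fantasy Love, but its log2 fold of -1.43 ± 0.70 was not called (adjusted p = 0.177). That test takes in the spread of all 18 libraries, and the Fantasy Love libraries at 6 °C stood at 751 ± 1076 CPM (SD, n = 3). Glutathione S-transferases, which conjugate reactive compounds, had 11 of 29 higher (37.9%) and 3 lower (10.3%), with the higher count at 7 without Oregon replicate 2, Oregon replicate 3 or Fantasy Love replicate 2. GSTU17 (DN56485_c2_g1) was higher by 2.16 ± 0.23. Class III peroxidases and laccases, which oxidise phenolics in the cell wall, had 9 of 27 higher (33.3%; 5 groups without Oregon replicate 1) and 2 lower (7.41%). PER4 (DN36366_c0_g2) was 1 of the 2 lower, with 62.4 to 120 CPM in Oregon and 0.0638 to 3.27 CPM in Fantasy Love. Summed over the 2 groups that share its best protein hit, the difference was not called (log2 fold -1.39, adjusted p = 0.351).

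Sugar metabolism divided by enzyme class, in lists of single classes that were made after values were seen. Of 119 tested groups, 24 were called lower in Fantasy Love (20.2%) and 8 higher (6.72%). Trehalose-phosphate synthases, a family named for an enzyme whose product signals sucrose status, had 13 of 26 groups lower (50%) and 1 higher, with a median of -1.64. Whether these groups make that product was not tested. TPS6 (DN53078_c0_g1) measured 86.4, 63.5 and 65.9 CPM in Oregon and 23.5, 18.2 and 20.2 CPM in Fantasy Love, a log2 fold of -1.80 ± 0.21 (adjusted p = 1.38e-05). The group called higher carries the same name (DN53078_c0_g2), had no counts in Oregon and belongs to the same component of the assembly. Whether the pair divides the reads of 1 gene was not tested. Without Oregon replicate 1 the lower count was 8. TPS5 (DN44799_c1_g5), the most abundant, was not called (log2 fold 0.62, adjusted p = 0.171). Sucrose synthases, which break sucrose down, had 2 of 10 lower (4 without Fantasy Love replicate 2) and 0 higher: sucrose synthase 2 (DN54386_c0_g2) stood at 261, 315 and 271 CPM in Oregon and 43.2, 57.8 and 16.9 CPM in Fantasy Love, a log2 fold of -2.84 ± 0.57 (adjusted p = 0.00182).

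Sucrose-phosphate synthases, which make sucrose and are also a list made after values were seen, went the other way. Of 5 groups, 4 were called higher and 0 lower, with summed levels of 107.6 to 133.1 CPM in Oregon and 245.1 to 390.5 CPM in Fantasy Love. SPS2 (DN51413_c1_g1) measured 37.8, 30.8 and 39.0 CPM in Oregon and 122, 94.4 and 75.6 CPM in Fantasy Love, a log2 fold of 1.44 ± 0.23 (adjusted p = 0.00028). It was higher in the cold too, by 1.49 at 6 °C and 1.65 at 4 °C, and of the 4 groups, 3 were called higher at 6 °C and 4 at 4 °C. Of the trehalose-phosphate synthases called lower, 2 of 13 were called lower at 6 °C (15.4%) and 3 at 4 °C (23.1%). Over all 3641 groups called lower at 25 °C these shares were 35.4% and 35.6%. A raffinose synthase (RFS, DN48583_c0_g2), which makes a sugar known from stressed leaves, stood at 0.425, 0.786 and 0.403 CPM in Oregon and 65.9, 63.0 and 23.6 CPM in Fantasy Love, a log2 fold of 6.53 ± 0.61 (adjusted p = 1.02e-06). The step before it was mixed: galactinol synthase GOLS1 (DN44247_c0_g4) was higher by 1.66 ± 0.31 and GOLS2 (DN42168_c3_g4) lower, at -2.46 ± 0.49. Another group named galactinol synthase 1 (DN50002_c0_g2) was also called lower. It lost that call with any 1 of the 6 libraries left out, at log2 folds of -1.42 to -1.56. Of 31 sugar transport groups, also a list made after values were seen, 4 were called lower (12.9%) and 1 higher (3.23%; 2 groups without Fantasy Love replicate 2), with a median of -0.21. The ERD6-like transporter DN55818_c1_g2 was the higher one, by 2.11 ± 0.25. Summed over the 3 groups that share its best protein hit, the difference was not called (log2 fold 0.17, adjusted p = 0.504). The lower ones included the monosaccharide transporters STP14 (DN54680_c1_g1) at -3.23 ± 0.31 and STP1 (DN41971_c0_g3), with 142 to 173 CPM in Oregon and 61.3, 9.07 and 2.81 CPM in Fantasy Love.

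**Figure D4:**
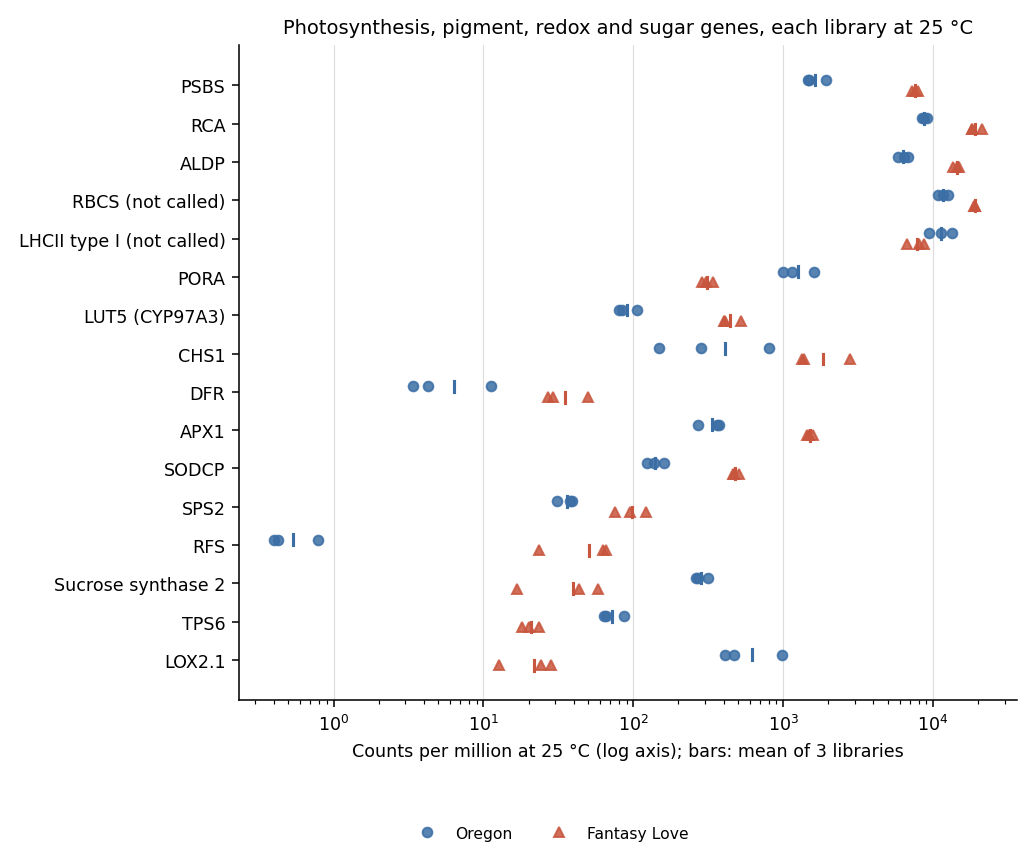
Level (CPM after scaling, logarithmic axis) of 16 genes of photosynthesis, pigments, antioxidant enzymes, sugars and jasmonate synthesis in each 25 °C library; points are libraries and bars are the means of 3. PSBS, APX1 and RFS lie higher in all Fantasy Love libraries, TPS6, sucrose synthase 2 and LOX2.1 lie lower, and the small subunit of Rubisco and the LHCII group were not called.

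Genes for intracellular immune receptors differed in both directions. NLR proteins bind nucleotides and carry leucine-rich repeats to sense pathogen effectors, and their genes are known to vary between varieties of a plant. Of 382 tested NLR groups, 70 were called higher in Fantasy Love (18.3%) and 41 lower (10.7%), with a median of 0.28. The summed level was 6291 to 6650 CPM in Oregon and 8340 to 10340 CPM in Fantasy Love. An RGA1-named group (DN42613_c0_g2) measured 0.142, 0.0604 and 0.0671 CPM in Oregon and 248, 270 and 299 CPM in Fantasy Love. It was nearly absent from every Oregon library, with a log2 fold of 11.49 ± 0.49 (adjusted p = 3.56e-09), and the fold was 12.40 at 6 °C and 11.17 at 4 °C. RPS2 (DN38783_c4_g1) showed the reverse, with 27.8, 29.9 and 32.1 CPM in Oregon and no counts in Fantasy Love, at least 517-fold lower against a floor of 3 counts over the group. Another NLR group (DN55055_c2_g2, named At1g61180) had 254 to 338 CPM in Oregon and 0 to 1.03 CPM in Fantasy Love. The most abundant NLR group (DN57328_c4_g1, also RGA1) was not called. Of the 70 higher, 38 were called higher at 6 °C (54.3%) and 31 at 4 °C (44.3%), against 42.5% and 34.0% of all groups higher at 25 °C. Of the 41 lower, 25 (61.0%) and 26 (63.4%) were called lower, against 35.4% and 35.6% of all groups lower at 25 °C. Since groups with the same name can divide by allele, counts were also summed over all groups with the same best hit: the RGA1 sum around DN42613_c0_g2, over 3 groups, was higher by 1.91 (adjusted p = 0.000172), and the RGA3 sum around DN44951_c0_g2, a group absent from Fantasy Love, was not called over its 27 groups (log2 fold 0.29, adjusted p = 0.463).

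Receptor kinases of the cell surface were called lower more often than higher. Of 195 leucine-rich repeat kinases, 28 were lower (14.4%) and 15 higher (7.69%; 8 groups without Oregon replicate 1). Of 237 lectin and wall-associated kinases, 41 were lower (17.3%) and 22 higher (9.28%). Over all tested groups 7.05% were lower and 8.35% higher. A leucine-rich repeat kinase (DN38365_c1_g2) stood at 61.9, 73.9 and 71.4 CPM in Oregon and at 0.0554, 0 and 0 CPM in Fantasy Love, a log2 fold of -11.38 ± 0.39 (adjusted p = 3.68e-12), with folds of -10.78 and -11.39 in the cold. The ubiquitin ligase PUB33 (DN52882_c2_g2) had 446 to 484 CPM in Oregon and 1.28 to 2.88 CPM in Fantasy Love, and folds of -7.64, -5.82 and -6.32 at 25, 6 and 4 °C.

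A few lipoxygenase and pathogenesis-related genes were far lower in Fantasy Love. Lipoxygenases, a list made after values were seen, oxidise fatty acids at the head of the jasmonate pathway. Of 12 groups, 3 were called lower (2 with any 1 library left out) and 0 higher (1 without Oregon replicate 3 or Fantasy Love replicate 2). Their summed level was 693.6 to 1524 CPM in Oregon and 112.3 to 144.1 CPM in Fantasy Love. LOX2.1 (DN55215_c3_g3) measured 410, 466 and 984 CPM in Oregon and 24.0, 12.7 and 28.3 CPM in Fantasy Love, a log2 fold of -4.84 ± 0.39 (adjusted p = 2.04e-07). LOX2.3 (DN34003_c1_g1) followed the same order of libraries, with a log2 fold of -4.73 ± 0.40. The difference was smaller in the cold: LOX2.1 had folds of -0.64 at 6 °C and -2.32 at 4 °C. The rest of the pathway did not share it. Of 53 jasmonate groups in all, 5 were higher (9.43%) and 6 lower (11.3%), against 8.35% and 7.05% of all tested groups. The higher count was 2 without Oregon replicate 2 and 3 without Oregon replicate 3 or Fantasy Love replicate 1. Without Oregon replicate 3 the lower count was 3. OPR1 (DN53763_c0_g2), named for a reductase of the pathway's family, was higher by 2.34 ± 0.30, and JAR1 (DN55935_c1_g1), which makes the active conjugate, was not called (adjusted p = 0.547). Pathogenesis-related proteins had 15 of 81 lower (18.5%) and 5 higher (6.17%), with a median of -0.32. The higher count was 2 or 3 with any library but Fantasy Love replicate 1 left out. The thaumatin-like PR-R (DN50193_c1_g1) stood at 1092, 229 and 758 CPM in Oregon and at 0.221, 0.489 and 0 CPM in Fantasy Love, a log2 fold of -11.42 ± 1.11 (adjusted p = 1.56e-06). In the cold its fold was -2.18 at 6 °C and -1.05 at 4 °C. A miraculin-like protein (DN56896_c1_g1), of the Kunitz protease inhibitor family, was among the most abundant leaf transcripts of Oregon, with 16410, 12840 and 15980 CPM, and had 233, 142 and 264 CPM in Fantasy Love (log2 fold -6.15 ± 0.88, adjusted p = 9.05e-05). The thiol protease CCP2 (DN55879_c1_g4) was lower by a smaller margin, with a log2 fold of -1.32 ± 0.32.

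Cytochromes P450, a large family of oxidising enzymes, had 30 of 123 groups lower (24.4%) and 12 higher (9.76%), with a median of -0.64. CYP704C1 (DN35556_c2_g3) stood at 97.5, 81.6 and 67.8 CPM in Oregon and at 1.38, 0.272 and 0 CPM in Fantasy Love, a log2 fold of -7.17 ± 0.71 (adjusted p = 1.97e-06), and the folds in the cold were -4.96 and -7.20. Enzymes of specialised metabolism were among the groups nearly confined to 1 cultivar. ZSS1 (DN41855_c0_g2), named for a sesquiterpene synthase, measured 0.283, 0 and 0.0671 CPM in Oregon and 440, 324 and 357 CPM in Fantasy Love, with folds of 11.64, 11.63 and 8.89 at 25, 6 and 4 °C. NCS1 (DN38294_c2_g3), named for norcoclaurine synthase of alkaloid-making plants, had 0.0604 to 0.0708 CPM in Oregon and 69.2 to 81.0 CPM in Fantasy Love, with folds of 10.03, 10.53 and 10.33. These names mark similarity to the protein of another plant and say nothing of the product made in Anthurium.

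Several abundant cell wall genes were lower in Fantasy Love. Both xyloglucan endotransglucosylases named XTH30, which cut and rejoin wall polymers, were lower: DN54999_c0_g3 measured 6165, 5683 and 4645 CPM in Oregon and 1145, 1001 and 691 CPM in Fantasy Love (log2 fold -2.54 ± 0.55, adjusted p = 0.00335), and DN36849_c1_g1 had a log2 fold of -2.24 ± 0.57, which was not called without Fantasy Love replicate 3 (adjusted p = 0.0535). These weigh on the summed level of the wall-loosening list, 15260 to 18140 CPM in Oregon and 6529 to 8639 CPM in Fantasy Love, although 22 of its 152 groups were called higher (14.5%) and 11 lower (7.24%). The higher count was 11 to 14 without Oregon replicate 1, Oregon replicate 2 or Fantasy Love replicate 3, and the lower count 6 or 7 without Fantasy Love replicate 3 or 1. A pectinesterase (PME35, DN41089_c1_g1) fell from 57.5 to 61.1 CPM in Oregon to 0.111 to 1.09 CPM in Fantasy Love, and a polygalacturonase (DN52012_c2_g1), which degrades pectin, was higher by 1.69 ± 0.19. The proline-rich DC2.15 (DN37415_c2_g8) had 2580, 2545 and 1488 CPM in Oregon and 49.7, 338 and 197 CPM in Fantasy Love, a log2 fold of -3.50 ± 0.92 (adjusted p = 0.0121; 0.0528 without Fantasy Love replicate 1).

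Cuticle genes had 18 of 117 groups higher (15.4%) and 13 lower (11.1%), the latter 8 without Oregon replicate 3 or Fantasy Love replicate 1 or 2. Of the CER1 groups, named for the enzyme that makes wax alkanes, DN54699_c0_g1 stood at 9.27, 6.89 and 28.9 CPM in Oregon and 227, 309 and 296 CPM in Fantasy Love (log2 fold 4.21 ± 0.77), and DN54048_c0_g2 at 135, 86.7 and 104 CPM and 5.15, 7.88 and 7.66 CPM (log2 fold -3.97 ± 0.29). At 6 °C the folds were 6.26 and -3.96, both called, and at 4 °C 1.83, not called (adjusted p = 0.122), and -5.51. Several surface genes differed widely between the Fantasy Love libraries. CYP86A2 (DN36962_c0_g2), a fatty acid hydroxylase of cutin synthesis, had no counts in Oregon at 25 °C and 0.221, 4.62 and 34.1 CPM in Fantasy Love. Against a floor of 3 counts over the group the Fantasy Love mean was at least 197-fold higher. That mean came mostly from replicate 3, and replicate 1 was far below it (log2 fold 10.91 ± 2.71). At 6 °C Oregon had a mean of 0.926 CPM. The wax elongation gene KCS10 (DN37254_c1_g4) had 307 to 355 CPM in Oregon and 275, 528 and 909 CPM in Fantasy Love and was not called (adjusted p = 0.238). A pollen Ole e 1-like protein (DN40873_c0_g1) had 1129 and 1676 CPM in Fantasy Love replicates 1 and 2 and 4.40 CPM in replicate 3, against at most 0.738 CPM in Oregon.

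Aquaporins, the channels for water, had 8 of 37 groups lower (21.6%) and 3 higher (8.11%), with a median of -0.65. PIP1-1 (DN34663_c2_g1), of the plasma membrane, measured 23.0, 27.9 and 26.5 CPM in Oregon and 128, 177 and 158 CPM in Fantasy Love, a log2 fold of 2.58 ± 0.31 (adjusted p = 1.57e-05), and was higher in the cold by 3.31 and 4.06. The most abundant PIP1-2 group (DN52877_c3_g1) was not called (log2 fold 0.17, adjusted p = 0.698), while the smaller DN52877_c3_g5 was higher by 2.32 ± 0.29. PIP2-7 (DN33312_c2_g3) was lower, at -4.19. Other transporters with large differences were NPF3.1 (DN41820_c1_g1), of the nitrate transporter family, with 3.57 to 15.0 CPM in Oregon and 174 to 500 CPM in Fantasy Love, and the copper transporter COPT1 (DN36319_c1_g1), lower by a log2 fold of -2.30 ± 0.22. HMA2 (DN37961_c0_g9), named for a metal-pumping ATPase, had 49.3, 54.3 and 60.5 CPM in Oregon and no counts in Fantasy Love, at least 946-fold lower.

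Among transcription factors, NAC groups were called lower more often than all tested groups were, with 10 of 55 lower (18.2% against 7.05%) and 3 higher (5.45% against 8.35%), but without Oregon replicate 1 or Fantasy Love replicate 3 the lower count was 5. WRKY groups had 6 of 59 lower (10.2%) and 3 higher (5.08%), ERF groups 4 of 71 each way (5.63%), MYB groups 7 of 103 lower (6.8%) and 3 higher (2.91%), and bHLH groups 5 of 74 lower (6.76%) and 4 higher (5.41%). These counts are small and moved with single libraries. The WRKY lower count was 2 without Oregon replicate 3 and 3 without Fantasy Love replicate 3. The MYB lower count was 4 without Oregon replicate 1 or Fantasy Love replicate 2 or 3, and the bHLH lower count 3 without Oregon replicate 1 or Fantasy Love replicate 2. The higher counts fell to 1 for WRKY without any 1 Oregon library and for NAC without Oregon replicate 1 or Fantasy Love replicate 2. For bHLH the higher count was 1 without Oregon replicate 2 or 3 and 2 without Fantasy Love replicate 2 or 3. DREB2B (DN40275_c0_g1), of the drought- and heat-responsive DREB2 type, was lower in Fantasy Love, with 5.37 to 9.98 CPM in Oregon and 0.957 to 1.20 CPM in Fantasy Love (log2 fold -2.80 ± 0.26, adjusted p = 8.74e-07). ICE1 (DN53571_c0_g2), which acts upstream of cold-response genes, was not called (log2 fold -0.35, adjusted p = 0.502), and of 10 cold regulator groups 0 were higher and 1 lower by edgeR. SVP (DN34549_c3_g1), a MADS-box protein known as a floral repressor in Arabidopsis, was lower at -1.46 (adjusted p = 0.0513 without Oregon replicate 1 and 0.054 without Fantasy Love replicate 3). UNE10 (DN55357_c0_g1), a bHLH protein related to the phytochrome-interacting factors, had 515 to 901 CPM in Oregon and 1965 to 2499 CPM in Fantasy Love (log2 fold 1.68 ± 0.48, adjusted p = 0.0202), a call lost without Oregon replicate 1 or 3 or Fantasy Love replicate 2.

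Clock genes had 5 of 42 groups higher (11.9%, against 8.35% of all tested groups) and 2 lower (4.76% against 7.05%), with a median of 0.01. With counts this small these shares lie near those of all groups. PRR95 (DN53150_c0_g1), a pseudo-response regulator, measured 122, 130 and 112 CPM in Oregon and 39.0, 40.8 and 43.9 CPM in Fantasy Love, a log2 fold of -1.56 ± 0.35 (adjusted p = 0.00437). Its relative PRR73 (DN56319_c0_g1) was higher by 1.59 ± 0.28, and LNK1 (DN47818_c0_g1), a coactivator of the clock, by 1.36 ± 0.35. The Adagio-like blue light receptor (DN32967_c1_g1) fell from 12.5 to 15.9 CPM in Oregon to 0.319 to 1.55 CPM in Fantasy Love. The morning gene LHY (DN37685_c0_g4) and the evening gene GIGANTEA (DN56493_c0_g1), both chosen after their values were seen, had log2 folds of -0.19 and -0.74 and were not called (adjusted p = 0.617 and 0.233).

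Some differences were of presence, few of them at 10 CPM or more. Among tested groups, 4427 had no counts in any Oregon library and 4343 none in any Fantasy Love library at 25 °C, and of these 13 and 23 reached 10 CPM in the other cultivar. Of the 4427, 805 were called, and of the 4343, 663, beside 7955 of all 51670 tested groups (15.4%). Called or not, 580 of the 4427 also had no counts in the 6 cold Oregon libraries. Likewise 436 of the 4343 had none in the cold Fantasy Love libraries. SBH1 (DN57255_c0_g1), named for a sphinganine hydroxylase of sphingolipid synthesis, stood at 0 in Oregon and at 19.5, 26.3 and 6.45 CPM in Fantasy Love, at least 264-fold higher, and PP2B10 (DN45285_c1_g1), an F-box protein, at 0 and at 11.1, 13.7 and 11.0 CPM, at least 180-fold higher. Absent from Fantasy Love were, among others, an alternative oxidase (DN45772_c0_g3, at least 254-fold lower) and a GDSL esterase named At4g10955 (DN35627_c0_g1, at least 347-fold lower). Of 3879 called groups with a named plant hit, 2687 were the sole tested group of their hit. For the other 1192, the sum over the hit was called the same way for 497 (41.7%) and the opposite way for 50. BURP3 (DN52379_c0_g2) is a case: the group had 376 to 482 CPM in Oregon and at most 0.109 CPM in Fantasy Love, and the sum over its hit was not called (log2 fold 0.23, adjusted p = 0.846). Summed over hits, 1664 of 19258 were higher (8.64%) and 1487 lower (7.72%).

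Groups named for retrotransposons, mobile elements copied through RNA, had 112 of 981 higher (11.4%; 74 groups without Oregon replicate 1) and 69 lower (7.03%), and took 0.161% to 0.199% of the counts in Oregon and 0.253% to 0.286% in Fantasy Love, which do not overlap (exact two-sided permutation p = 0.1). Ribosomal proteins had 35 of 319 higher (11.0%) and 12 lower (3.76%), with a median of 0.21. Groups named for the cell cycle had 9 of 164 higher (5.49%) and 15 lower (9.15%; 7 groups without Fantasy Love replicate 3), against 8.35% and 7.05% of all tested groups. Among the lower ones was the replication clamp PCNA (DN49707_c1_g2), at -2.57 ± 0.22.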

How the data were processed

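Leaf RNA of 18 libraries was analysed from 1 table of the whole series. Reads were trimmed with cutadapt 1.9, per the submitters' processing notes; no source read here states the assembler version, the quantification tool, any filter or strandedness. The authors deposited estimated counts and TPM for 132108 transcript groups (median length 316 bases), of which 34851 carry a protein name; 4.21% of the count values have decimals. The deposited estimated counts were rounded to whole numbers and tested; the deposited TPM values entered no test, and a level of CPM was recomputed. Group names omit a prefix that all of them share.

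Groups were filtered with filterByExpr (at least 10 counts, 15 in total), leaving 51670, and edgeR 4.0.16 (R 4.3.3) was run with TMM scaling, 6 group means over all 18 libraries and the quasi-likelihood test, with Benjamini-Hochberg adjustment. SE is the log2 fold divided by the square root of the F statistic. Folds against a group at 0 use a floor of 3 counts over that group and cover counting error only. Sums over groups with the same best protein hit were tested the same way. Shares of counts were compared with exact two-sided permutation tests (SciPy 1.17.1). Gene lists were word searches in protein names (52 lists). The comparison, the lists and the rule for named genes were chosen with earlier results of these data known, and 14 sublists were added after values were seen. Among chaperones these were small heat shock proteins, HSP70, HSP90, ClpB, DnaJ, chaperonins and heat stress factors. For sugars they were trehalose-phosphate, sucrose and sucrose-phosphate synthases, sugar transport and the raffinose family. The last were lipoxygenases and ascorbate and superoxide enzymes. Genes named were the 15 largest rises and falls of at least 10 CPM, the 8 most abundant called genes each way, the 6 most abundant genes absent from either cultivar each way, the most abundant member and up to 2 called members each way of each list, and every called flavonoid gene; the text gives a part of them, chosen for the groups it describes. On simulated counts over 45780 genes with the 25 °C comparison's sizes, the fit recovered 0% of the genes changed 2-fold, 38.3% of those changed 4-fold, 69.6% at 16-fold and 91.5% at 64-fold, and 7 of 100 calls were false. Each fold was set for 46 or 47 tested genes, far fewer changed genes than were called here. These rates are therefore not those of this comparison. Alternatives were other scalings and filters, DESeq2 1.42.0, limma 3.58.1, the 2 groups alone and a replicate block. Each 25 °C library was also left out in turn, as was Fantasy Love replicate 2 at 6 °C.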

Additional observations from a re-analysis of the deposited data

Results flagged for a closer look

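Several genes were called in one direction at 25 °C and in the other in the cold, with the change of the log2 fold between temperatures itself past the threshold (edgeR's quasi-likelihood test on the interaction, Benjamini-Hochberg adjusted). These changes use the 25 °C libraries that made the calls, and their cause was not tested. Of the heat shock genes, the change from 25 to 6 °C was -6.69 for HSP23.6 (DN46798_c1_g4; adjusted p = 2.87e-05) and -6.69 for HSP26.7 (DN46690_c0_g2; adjusted p = 0.00121), -5.27 for HSP83A (DN54006_c1_g1; adjusted p = 0.000339) and -6.50 for HSFB2C (DN39711_c0_g4; adjusted p = 0.000183). From 25 to 4 °C it was -6.95 for HSP23.6, -5.56 for HSP83A, -5.42 for HSFB2C and -12.04 for HSFA2B (DN35567_c1_g1; adjusted p = 3.53e-05).

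At 6 °C the wall peroxidase PER4 (DN36366_c0_g2) changed by 10.30 (from -5.55 to 4.75; adjusted p = 0.00129), galactinol synthase GOLS1 (DN44247_c0_g4) by -2.80 (from 1.66 to -1.14) and SVP (DN34549_c3_g1) by 2.80 (from -1.46 to 1.34). PER4 was near the floor at 6 °C, with 0.1115 ± 0.06448 CPM in Oregon and 3.17 ± 5.01 CPM in Fantasy Love (SD, n = 3). Its Fantasy Love SD lay above the mean. From 25 to 4 °C the change was toward Oregon for the following: RCA (DN56471_c1_g2) by -2.21, GLUTRBP (DN52318_c0_g1) by -2.81, CAT1 (DN55233_c0_g1) by -2.52 and UNE10 (DN55357_c0_g1) by -3.82. Of the 117 genes of the report, 52 had a change past an adjusted p of 0.05 at 6 °C and 57 at 4 °C.

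Oregon replicate 1 at 25 °C held counts outside the plant genes that the report describes: 2394 counts on groups whose best hit is a mouse protein, against 12 to 30 in the other 5 libraries at 25 °C, and 2481 counts on groups with a virus hit, against 0 to 4. These groups were kept in the library totals, and those that passed the filter in the tests. All groups with hits outside plants made up 0.0307% of that library's counts and at most 0.00316% of the others.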

How the results depend on the processing

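No call for a gene reversed its direction under any alternative run. Restricting the test to groups with a plant hit (23991 tested) gave 2180 higher and 1806 lower, with 496 and 369 called the same way at all 3 temperatures, because fewer groups were tested; each of the other settings that keep all libraries stayed within 1.5 times of the counts of higher and lower groups. Leaving out 1 library of the 25 °C comparison gave 2994 to 3806 higher and 2698 to 2966 lower, and 952 to 1049 and 738 to 755 called the same way at all 3 temperatures. Fantasy Love replicate 2 at 6 °C held counts for 59649 groups, against 86392 and 76283 in replicates 1 and 3. Without it in the shared spread, 5320 groups were called higher and 4635 lower at 25 °C. The 6 °C folds given in the report include this library. The same replicate numbers do not pair the libraries (correlations of deviations of 0.034, 0.007 and -0.026); with the replicate number as a block, 7194 of the 7955 calls were kept in the same direction. Shared calls numbered 7897 with DESeq2 size factors, 7738 with DESeq2's Wald test, 7267 with quantile scaling and limma, 6843 with no filter and 6489 with the 2 groups alone. Of 320 genes followed, between 16 and 27 lost their call with 1 library of the 25 °C comparison left out. Under quantile scaling 20 did, among them the aldolase ALDP, CAT1 and CCP2, whose folds were then 0.99, 0.88 and -0.89. LNK1 lost its call there too (adjusted p = 0.0723). The simulation recovered 0% of genes changed 2-fold, but it held far fewer changed genes than were called here. Its rates are therefore not those of this comparison.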
